A study of Mus musculus with 4 samples.

Results

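Axin2, Lef1, Dkk1, Sp5, Wnt3 and Cdx1 are targets or components of the WNT pathway, and the chromatin at these 6 mouse genes was described in rosette stem cells from 2 histone marks. Each gene was represented by a fixed window on build mm9, and its members were all called regions that overlapped the window by at least 1 bp. The windows ran on chromosome 11 from 103.62 to 103.69 Mb (Wnt3) and from 108.77 to 108.83 Mb (Axin2), on chromosome 19 from 30.61 to 30.64 Mb (Dkk1), on chromosome 3 from 130.8 to 130.93 Mb (Lef1), on chromosome 2 from 70.3 to 70.32 Mb (Sp5) and on chromosome 18 from 61.17 to 61.21 Mb (Cdx1). Of 76945 regions in the 4 deposited lists, 49 were members. The H3K27me3 lists contributed 10 of 14575 regions (CGR8) and 11 of 12511 (R1), and the H3K4me3 lists contributed 13 of 25241 and 15 of 24618.

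CGR8 and R1 are mouse embryonic stem cell lines, of strain 129/Ola and strain 129. Both had been kept for 8 days on gelatin and serum-coated plates in N2B27 medium that held LIF, a cytokine of naive culture, 2 µM IWP2 and 1 µM PD325901. The submitters call the product rosette stem cells, a state between naive and primed pluripotency. IWP2 stops cells from secreting WNT ligands and PD325901 inhibits the kinase MEK, so all 4 libraries come from cells under both inhibitors, and cells without IWP2 were not analysed here. Chromatin immunoprecipitation and sequencing gave 1 library for H3K27me3 and 1 for H3K4me3 in each line.

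A difference between CGR8 and R1 therefore had no replicate check, and means ± SD below run over the 2 lines. The read totals of the libraries are unknown from the sources used here. The lists covered 134.0 Mb (CGR8) and 99.4 Mb (R1) for H3K27me3 and 59.0 Mb and 55.6 Mb for H3K4me3. Where a region was not called, a weak mark may still lie under the detection limit of that library.

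WNT ligands bind Frizzled receptors and LRP co-receptors at the cell surface, and β-catenin is then no longer destroyed and enters the nucleus. There it joins DNA-binding proteins of the TCF/LEF family and turns on target genes, among them inhibitors that feed back on the pathway. In pluripotent cells WNT signalling supports self-renewal in the naive state and drives primitive streak genes in the primed state. H3K27me3 is laid down by Polycomb repressive complex 2 and goes with silent genes. H3K4me3 marks promoters of active genes, and promoters that carry both marks are called bivalent. The lists describe a cell population and cannot tell whether both marks lay on the same chromosome copies.

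The promoter sequences of 5 of the 6 genes follow, since CpG-rich sequence is where both marks are usually found and TCF/LEF proteins bind the core CTTTGA. They come from RefSeq on build GRCm38.p6, from 250 bases before to 50 bases after an annotated start, and read 5′ to 3′ along the gene. That build differs from mm9, so no called region was placed on them. Capitals mark each CpG dinucleotide and each CTTTGA or its reverse complement TCAAAG, so that both strands were searched. The motif itself contains no CpG.
Wnt3, chr11:103773925-103774224, plus strand: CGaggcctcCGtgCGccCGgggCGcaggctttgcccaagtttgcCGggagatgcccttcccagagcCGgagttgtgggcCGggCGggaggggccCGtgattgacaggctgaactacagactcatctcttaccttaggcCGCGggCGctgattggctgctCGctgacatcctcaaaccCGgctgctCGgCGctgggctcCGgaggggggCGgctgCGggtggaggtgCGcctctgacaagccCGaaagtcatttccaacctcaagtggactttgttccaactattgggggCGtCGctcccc
Dkk1, chr19:30549447-30549746, minus strand: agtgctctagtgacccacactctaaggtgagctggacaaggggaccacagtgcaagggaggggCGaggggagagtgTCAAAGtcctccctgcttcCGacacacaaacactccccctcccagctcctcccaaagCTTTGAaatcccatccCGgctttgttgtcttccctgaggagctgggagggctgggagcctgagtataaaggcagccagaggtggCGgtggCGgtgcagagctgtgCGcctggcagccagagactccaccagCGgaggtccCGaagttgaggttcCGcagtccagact
Axin2, chr11:108920099-108920398, plus strand: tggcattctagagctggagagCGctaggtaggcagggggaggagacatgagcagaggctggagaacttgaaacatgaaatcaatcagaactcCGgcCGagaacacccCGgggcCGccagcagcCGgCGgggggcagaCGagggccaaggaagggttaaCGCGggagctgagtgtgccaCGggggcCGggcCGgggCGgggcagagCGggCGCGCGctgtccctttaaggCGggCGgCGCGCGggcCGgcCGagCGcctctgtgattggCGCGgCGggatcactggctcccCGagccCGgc
Lef1, chr3:131110047-131110346, plus strand: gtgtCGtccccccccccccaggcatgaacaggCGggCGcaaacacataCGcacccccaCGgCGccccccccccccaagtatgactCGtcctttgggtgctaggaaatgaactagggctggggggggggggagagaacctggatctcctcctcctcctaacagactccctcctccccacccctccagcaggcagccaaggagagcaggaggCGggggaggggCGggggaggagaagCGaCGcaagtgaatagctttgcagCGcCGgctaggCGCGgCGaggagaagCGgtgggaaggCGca
Sp5, chr2:70474673-70474972, plus strand: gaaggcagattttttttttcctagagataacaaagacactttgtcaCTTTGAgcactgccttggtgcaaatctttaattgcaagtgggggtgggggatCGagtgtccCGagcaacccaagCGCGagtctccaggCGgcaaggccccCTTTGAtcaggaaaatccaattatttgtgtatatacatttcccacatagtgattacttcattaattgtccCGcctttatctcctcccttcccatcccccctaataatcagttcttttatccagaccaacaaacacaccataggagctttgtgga

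The Axin2 promoter held 31 CpG in 300 bases and the Wnt3 promoter 24, more than 89.4% and 80.0% of the 32851 promoters in the RefSeq table. The Lef1 promoter shown held 18 CpG, and the others of Lef1 held 21, 8 and 5. Dkk1 held 9 and Sp5 held 6, near the median of 7 over all promoters. The core motif occurred at 2 places in the Dkk1 promoter, 174 and 117 bases before the start, and at 2 places in the Sp5 promoter, 204 and 104 bases before it. It was not in the windows shown for Wnt3, Axin2 and Lef1, and it occurred at 2 places in an internal Lef1 promoter. Only CTTTGA and its reverse complement were searched, so near matches were not counted. Absence of this exact sequence does not exclude other sequences that TCF/LEF proteins may bind. Over all these RefSeq promoters, 16.0% held the motif and 1.73% held it more than once.

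The windows of all 6 genes carried both marks in both lines. H3K27me3, H3K4me3 and bases covered by both were called in 6 of 6 windows in CGR8 and R1. For comparison, the chromosomes were divided into consecutive windows of the same lengths, which are 20 kb for Sp5, 30 kb for Dkk1, 40 kb for Cdx1, 60 kb for Axin2, 70 kb for Wnt3 and 130 kb for Lef1. In this order of length, 9.16%, 11.7%, 14.3%, 18.7%, 20.9% and 30.9% of them held H3K27me3 in both lines. H3K4me3 was held in both lines by 15%, 19.7%, 23.7%, 30.1%, 33% and 44.5%. Bases with both marks in each line were held by 4.31%, 6.06%, 7.77%, 10.9%, 12.5% and 20.6%. Those windows are not centred on genes, so these shares give only the background of the lists.

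Almost every H3K4me3 region of the 6 windows lay at least in part inside H3K27me3. This held for 12 of 13 regions of CGR8 and for 13 of 15 regions of R1, against 28.2% and 29.1% of all H3K4me3 regions. The exceptions were the higher-coordinate region of Axin2 in CGR8, a low-scoring region at the lower-coordinate end of Axin2 in R1 and the weaker of the Dkk1 regions in R1. H3K27me3 covered the whole Sp5 window in both lines and the whole Cdx1 window in CGR8, so the overlap there follows from that cover. Several H3K4me3 regions of a window often lay under 1 H3K27me3 region, so these counts are not independent. In the other direction, H3K4me3 was met by 6 of 10 H3K27me3 regions (CGR8) and 9 of 11 (R1), against 41.3% and 48.8% of the lists. For 1 of the 9 in R1, which enters the Wnt3 window with its last 2 kb, the H3K4me3 lay outside the window.

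**Figure D1:**
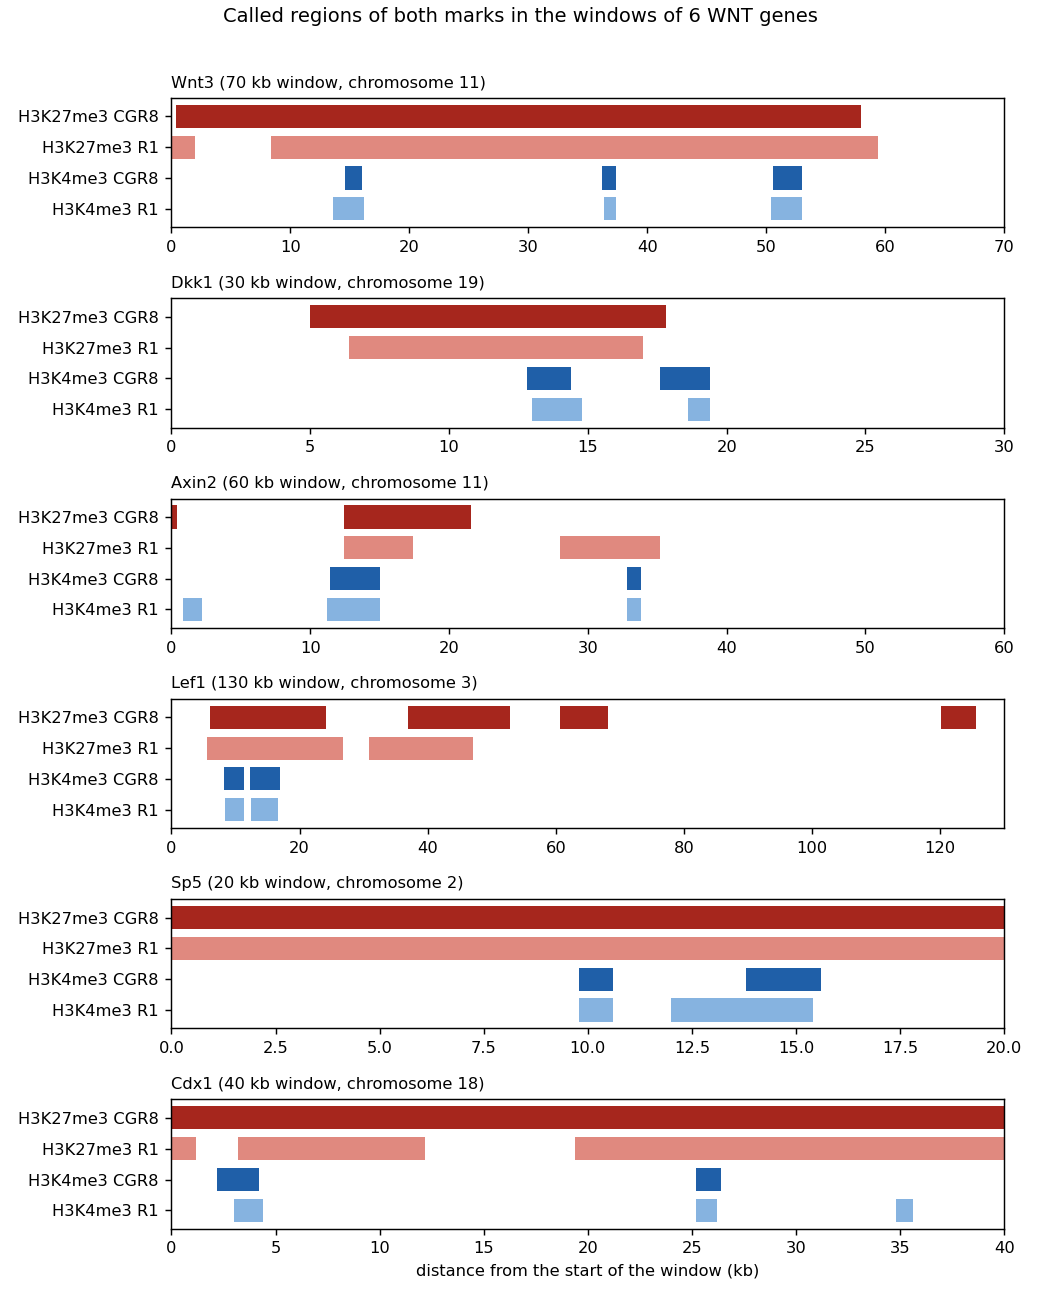
Called regions in the 6 windows, with the distance from the start of the window in kb on the horizontal axis and a row for each mark and line. Dark and light red bars are H3K27me3 in CGR8 and R1, dark and light blue bars H3K4me3 in CGR8 and R1, cut at the window's edges. H3K4me3 bars lie within the span of the H3K27me3 bars in most places, and the H3K27me3 of Cdx1 is 1 bar in CGR8 and 3 bars in R1.

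Wnt3, the ligand of the group and a gene required for the primitive streak, had the most extended H3K27me3. In CGR8 a single region ran on chromosome 11 from 103620401 to 103678000 (57.6 kb, score rank 59 of 14575). In R1 it ran from 103628401 to 103679400 (51.0 kb, score rank 71 of 12511). A further R1 region, from 103598401 to 103622000 with rank 432, reached 2 kb into the window after a gap of 6.4 kb. It overlapped both the CGR8 region and sequence beyond the window, on the side where RefSeq lists Wnt9b, another WNT ligand, as the neighbouring gene. H3K27me3 was called on that side in CGR8 too, where the next region lay 2.2 kb from the window. In all, 89.0% of this R1 region was covered by H3K27me3 of CGR8.

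Inside this domain H3K4me3 formed 3 regions in each line, all fully covered by H3K27me3. The strongest ran from 103670601 to 103673000 in CGR8 (2.4 kb, rank 10123 of 25241) and from 103670401 to 103673000 in R1 (2.6 kb, rank 9191 of 24618). The one at the lower-coordinate end ran from 103634601 to 103636000 in CGR8 (1.4 kb, rank 14912) and from 103633601 to 103636200 in R1 (2.6 kb, rank 13233). The middle one, at 103656201 to 103657400 in CGR8 and 103656401 to 103657400 in R1, ranked 22275 and 22056, at 88.2% and 89.6% of the lists counted from the highest score. H3K4me3 thus covered 8.68% of the H3K27me3 bases of the window in CGR8 and 11.7% in R1.

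Dkk1, which encodes a secreted inhibitor that binds the LRP co-receptors, carried a smaller H3K27me3 region. It ran on chromosome 19 from 30615001 to 30627800 in CGR8 (12.8 kb, rank 2167) and from 30616401 to 30627000 in R1 (10.6 kb, rank 1806), and the R1 bounds lay inside those of CGR8. The leading H3K4me3 region ran from 30622801 to 30624400 in CGR8 (1.6 kb, rank 14365) and from 30623001 to 30624800 in R1 (1.8 kb, rank 14029). It was wholly inside H3K27me3 in both lines.

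A weaker H3K4me3 region of Dkk1 lay at the border of the H3K27me3 domain. In CGR8 it ran from 30627601 to 30629400 (rank 20858) and shared 200 bp with H3K27me3. In R1 it ran from 30628601 to 30629400 (rank 21225) and did not overlap H3K27me3. The bases with both marks in both lines came to 1.4 kb, the shortest total of the 6 genes.

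Axin2, a scaffold of the complex that destroys β-catenin and a feedback target used widely as a WNT reporter, combined the highest leading H3K4me3 rank of the group by score with the lowest leading H3K27me3 rank by score. By score per kb its H3K27me3 stood at 11.1% of the list, ahead of Dkk1 at 20.4% and Cdx1 at 23.2%, and by width its H3K4me3 stood at 11.7%, behind Lef1 at 6.71% (means of the lines). The leading H3K4me3 region ran on chromosome 11 from 108781401 to 108785000 in CGR8 (3.6 kb, rank 3295) and from 108781201 to 108785000 in R1 (3.8 kb, rank 3140). Its score of 2014 in CGR8 and 1992 in R1 was the highest H3K4me3 score of the 6 windows in each line.

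H3K27me3 began at 108782401 in both lines, inside that H3K4me3 region. It ended at 108791600 in CGR8 (9.2 kb, rank 2858) and at 108787400 in R1 (5.0 kb, rank 2186). Of the leading H3K4me3 region 72.2% in CGR8 and 68.4% in R1 was covered by H3K27me3, where that of each other gene was covered to at least 85.7% in both lines. The shared stretch of both marks was the same in both lines, from 108782401 to 108785000 (2.6 kb).

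The other regions of the Axin2 window differed between the lines. An H3K4me3 region from 108802801 to 108803800 was called at the same bounds in both (rank 17426 in CGR8 and 17448 in R1). An H3K27me3 region from 108798001 to 108805200 (rank 6656) enclosed it in R1, and none was called there in CGR8. An H3K4me3 region from 108770801 to 108772200 was called in R1 alone, with rank 23256 of 24618. A CGR8 H3K27me3 region from 108764801 to 108770400 (rank 13071 of 14575) entered the window by 400 bp and had no R1 partner.

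Lef1, one of the DNA-binding effectors of β-catenin and itself a WNT target, stood high by score with both marks. Its leading regions stood at 2.96% (H3K27me3) and 14.6% (H3K4me3) of the list by score. By score per kb they stood at 7.28% and 30.6% (means of the lines). Its leading H3K4me3 region ran on chromosome 3 from 130812201 to 130817000 in CGR8 (4.8 kb, rank 3763) and from 130812401 to 130816600 in R1 (4.2 kb, rank 3535). A second one lay 0.8 kb before it in CGR8 and 1 kb before it in R1, from 130808201 and 130808401 to 130811400 (rank 13792 and 13297). Both lay wholly within an H3K27me3 region, which ran from 130806001 to 130824200 in CGR8 (18.2 kb, rank 401) and from 130805601 to 130826800 in R1 (21.2 kb, rank 396).

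The stretch with both marks in both lines at the leading Lef1 region was 4.2 kb long. Among 6308 such stretches over the genome, 83 were at least that long, and the median was 1.4 kb. Beyond it lay H3K27me3 without H3K4me3, from 130837001 to 130852800 in CGR8 (15.8 kb, rank 3090) and from 130830801 to 130847000 in R1 (16.2 kb, rank 3588). Another pair of CGR8 regions, from 130860601 to 130868200 and from 130920201 to 130925600, ranked 13957 and 13038 of 14575 and had no R1 partner.

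Sp5, a zinc-finger transcription factor induced directly by β-catenin, had the highest H3K27me3 score per length of the group. The region ran on chromosome 2 from 70298401 to 70322400 in CGR8 (24.0 kb, rank 127) and from 70298401 to 70323800 in R1 (25.4 kb, rank 118). It covered the whole window of 20 kb in both lines. The score per kb was 93.2 in CGR8 and 84.8 in R1, against a median of 19.6 and 20.6 over the lists.

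By score the leading H3K4me3 region of Sp5 stood near the middle of the list, at 53.9% in CGR8 and 52.1% in R1. By width it stood at 53.2% in CGR8 and 13.8% in R1. The leading region ran from 70313801 to 70315600 in CGR8 (1.8 kb, rank 13609) and from 70312001 to 70315400 in R1 (3.4 kb, rank 12838). A region of 0.8 kb, from 70309801 to 70310600, was called at the same bounds in both lines, with a score of 96.5 in CGR8 and 98.1 in R1. All lay inside H3K27me3. The Sp5 promoter shown above is the one with 6 CpG and the core motif at 2 places.

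Cdx1, a caudal homeobox factor of posterior patterning that responds to WNT, had H3K27me3 in a different number of regions in the 2 lines. In CGR8 a single region ran on chromosome 18 from 61165401 to 61214800 (49.4 kb, rank 308). R1 had 3 regions inside those bounds, from 61167201 to 61171200 (4.0 kb, rank 11529), from 61173201 to 61182200 (9.0 kb, rank 6178) and from 61189401 to 61210000 (20.6 kb, rank 599). Gaps of 2 kb and 7.2 kb separated them. The R1 scores summed to 999, against 1374 for the CGR8 region, as raw scores of lists whose scale was not equalised.

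H3K4me3 at Cdx1 lay in small regions. One ran from 61172201 to 61174200 in CGR8 (2.0 kb, rank 13963) and from 61173001 to 61174400 in R1 (1.4 kb, rank 13659). Another ran from 61195201 to 61196400 in CGR8 (1.2 kb, rank 16860) and to 61196200 in R1 (1.0 kb, rank 15533). R1 had a further one from 61204801 to 61205600, with a score of 48.1, low in a list that starts at 37.3. H3K27me3 covered 100% of H3K4me3 bases in CGR8 and 93.8% in R1.

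The order of the genes by the place of their leading region was nearly the same in the 2 lines. The place is given as the rank in percent of the list, so that a lower value is a higher score. For H3K27me3 it was 0.486% ± 0.115 for Wnt3, 0.907% ± 0.0508 for Sp5, 2.96% ± 0.293 for Lef1, 3.45% ± 1.89 for Cdx1, 14.7% ± 0.306 for Dkk1 and 18.5% ± 1.51 for Axin2 (SD, n = 2 lines each). The ranges of Lef1 and Cdx1 overlapped, and no other neighbours in this order did.

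For H3K4me3 the order was another. Axin2 stood at 12.9% ± 0.212, Lef1 at 14.6% ± 0.388, Wnt3 at 38.7% ± 1.96, Sp5 at 53.0% ± 1.25, Cdx1 at 55.4% ± 0.117 and Dkk1 at 56.9% ± 0.0533 (SD, n = 2 lines each). No ranges of neighbours overlapped. Of the H3K27me3 member regions, 4 of 10 (CGR8) and 5 of 11 (R1) fell in the highest-scoring 10% of their list. Among the 5 in R1 is the region with rank 432, which reached only 2 kb into the Wnt3 window. Of the H3K4me3 member regions, 0 of 13 and 0 of 15 did so. The lists by construction hold 10%. Dkk1, Sp5 and Cdx1 were alike in that their H3K4me3 stood in the lower-scoring part of the list in both lines.

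**Figure D2:**
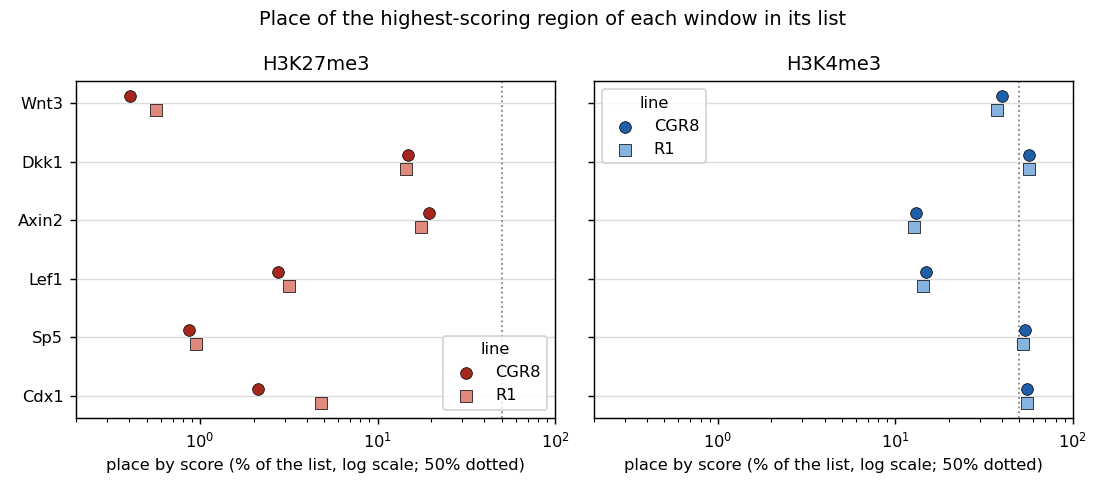
Place of the highest-scoring region of each window in its list, in percent of the list on a log scale, with H3K27me3 on the left and H3K4me3 on the right. Circles are CGR8 and squares R1, 1 library each, and the dotted line is the middle of the list. Wnt3 and Sp5 lie below 1% with H3K27me3 in both lines, and Axin2 and Lef1 lie between 12.8% and 14.9% with H3K4me3.

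Wide regions collect a higher score, so the order by score per kb was looked at beside it. Sp5 then led H3K27me3 with 89.0 ± 5.93, followed by Lef1 with 56.8 ± 10.8, Wnt3 with 52.6 ± 1.14, Axin2 with 52.2 ± 24.3, Dkk1 with 35.3 ± 4.79 and Cdx1 with 33.8 ± 8.43 (score per kb, SD, n = 2 lines each). By this measure the place of Wnt3 was 7.98% and that of Cdx1 23.2%. The Axin2 value was 35.1 in CGR8 and 69.4 in R1, where the region was shorter at a like score. For H3K4me3, Axin2 had 542 ± 24.9 and Lef1 416 ± 41.0 per kb, against 277 ± 22.5 for Wnt3 and 118 to 149 for Sp5, Dkk1 and Cdx1.

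The share of each window under H3K27me3 ranged widely. It was 100% in CGR8 and 100% in R1 for Sp5, 100% and 77% for Cdx1, and 82.3% and 75.7% for Wnt3. Dkk1 had 42.7% in CGR8 and 35.3% in R1, Lef1 36.2% and 28.8%, and Axin2 16% and 20.3%. These shares depend on the window lengths, which run from 20 to 130 kb. In absolute length the cover of Axin2 was 9.6 kb in CGR8 and 12.2 kb in R1, and Axin2 was the only one of the 6 with more H3K27me3 cover in R1.

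**Figure D3:**
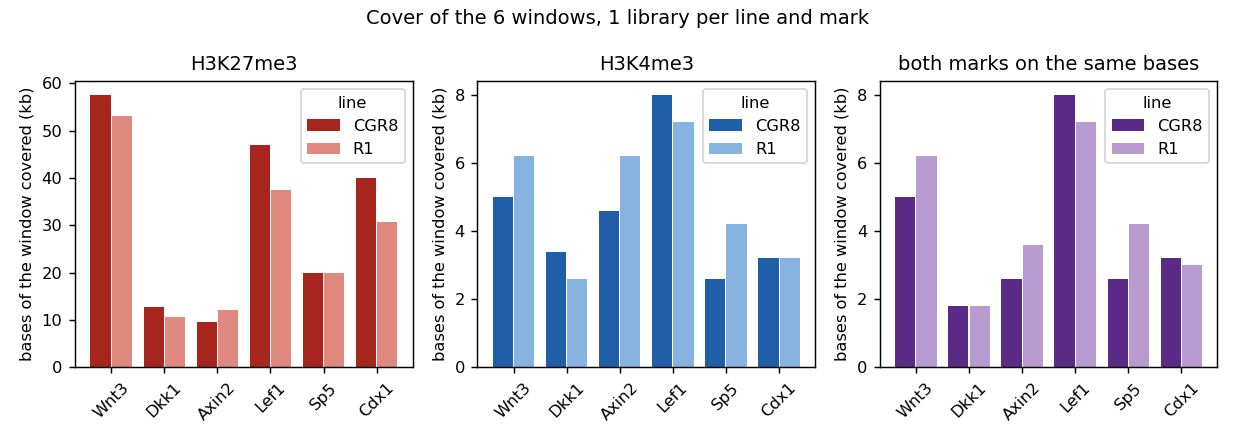
Bases of each window covered by H3K27me3, by H3K4me3 and by both marks, in kb, with dark bars for CGR8 and light bars for R1, 1 library each. Wnt3 has the tallest H3K27me3 bars, 57.6 kb and 53.0 kb, and Lef1 the tallest bars of both marks together, 8.0 kb and 7.2 kb.

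The lines were then compared within each mark. H3K27me3 covered 187 kb of the windows in CGR8 and 164 kb in R1, and 71.1% of the bases covered in either line were covered in both, against 49.3% over the whole lists. For H3K4me3 the cover was 26.8 kb in CGR8 and 29.6 kb in R1, and 70.9% was common to both, against 74.1% over the whole lists. By gene the common share of H3K27me3 was 100% for Sp5, 86.2% for Wnt3, 82.8% for Dkk1, 77% for Cdx1, 50.2% for Lef1 and 29.8% for Axin2. Regions were cut at the window's edges for the shares of the windows but not for those of the whole lists. The Sp5 window lay wholly inside a region of each line, so its 100% follows from the window's bounds. Of the uncut CGR8 region of Cdx1, 68.0% was covered in R1.

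A partner in the other line was found for 7 of 10 H3K27me3 regions (CGR8) and 10 of 11 (R1), against 67.1% and 81.1% over the lists, so the CGR8 count lies near that of its list. All 13 H3K4me3 regions of CGR8 and 13 of the 15 of R1 had a partner, against 89.8% and 92.6%. The 6 regions without a partner were 3 of CGR8 and 1 of R1 with H3K27me3 and 2 of R1 with H3K4me3, and all lay at Axin2, Lef1 or Cdx1.

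Scores of regions paired 1 to 1 between the lines were close. The 13 H3K4me3 pairs had log2 score ratios (CGR8 over R1) from -0.59 to 0.20 with a median of -0.07, against a median of 0.03 over 21972 pairs. The lowest was the lower-coordinate Wnt3 region, with a score of 187 in CGR8 and 281 in R1, and 5.50% of all pairs were lower. The 5 H3K27me3 pairs had ratios from -0.11 to 0.48 with a median of 0.05, against 0.25 over 8167 pairs. All 18 ratios lay between the 5th and the 95th percentile of their lists.

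The H3K27me3 regions of Wnt3 and Cdx1 had no partner of this kind, since the CGR8 region overlapped more than 1 R1 region at each gene. Why R1 had gaps there was not tested. Medians over all pairs of the chromosomes concerned ran from 0.15 to 0.25 for H3K27me3 and from 0.01 to 0.03 for H3K4me3, with the lowest H3K27me3 value on chromosome 11, which holds Axin2 and Wnt3. A difference of this size between the lines cannot be tested with 1 library each.

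**Figure D4:**
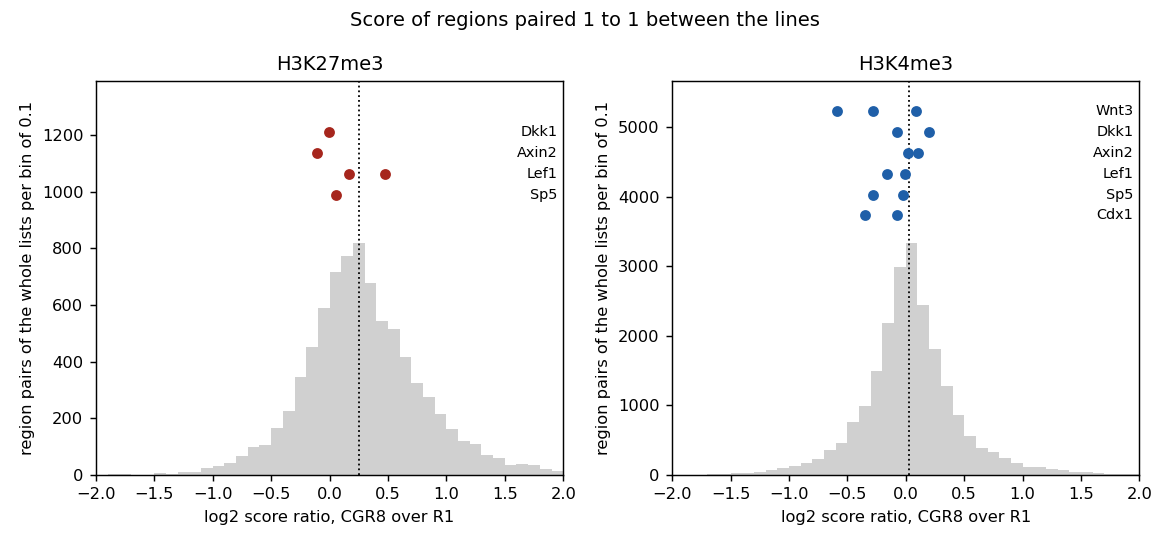
Log2 score ratio of CGR8 over R1 for regions paired 1 to 1, with the number of pairs of the whole lists in bins of 0.1 as grey bars and their median dotted. Coloured points are the pairs of the genes, in a row for each gene whose height has no unit. All points lie within the bulk of the grey bars.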

How the data were processed

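H3K27me3 and H3K4me3 were each measured in 1 library of CGR8 and 1 of R1. The authors deposited 1 list per library, with a position and a score for each called region. The build mm9, the aligner Bowtie2 2.0.2, the broad-region caller SICER 1.1 and bedtools 2.20.1 are named per the submitters' processing notes. Not given in the sources used here are their order and settings, the control library, the threshold and the formula of the score. The labels name different suppliers for the H3K27me3 antibody in different fields.

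Starts and ends lay on a grid of 200 bp and are given counted from 1. The smallest gap between regions was 800 bp for H3K27me3 and 400 bp for H3K4me3. Nearer calls had thus been joined for both marks, over longer gaps for H3K27me3, which widens the regions. Scores were used as ranks within a list, where rank 1 is the highest, and as ratios of regions paired 1 to 1. They were also given as raw values, per kb or summed. The scale of the lists was not equalised and their read totals are unknown, so raw values of the lines are not strictly comparable. The leading region of a window is its highest-scoring one.

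Windows came from the rule that defines the genes, and all 6 genes are named with every region that overlaps their window. Genes and lists were chosen with earlier results of these data known. No test was made: lines have no replicate. Backgrounds are the same shares over the whole lists and over consecutive windows on chromosomes 1 to 19 and X. No gene annotation on mm9 was used, so regions were not assigned to promoters, exons or introns, and other WNT genes were not analysed here. Neighbouring genes were named from RefSeq on GRCm38.p6. The alternatives were another rule for the window's edge, wider windows, fewer regions per list, merged regions, a stricter overlap, other rankings and leaving out a line. Interval functions were tested on simulated data. Python 3.11.15 was used with numpy 2.4.6, pandas 2.3.3 and matplotlib 3.10.9.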

Additional observations from a re-analysis of the deposited data

How the results depend on the processing

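The 6 windows held H3K27me3 in both lines under the 5 alternatives that change the window's edge or the regions used. Only the higher-scoring 50% of each list changed a count by more than 1.5 times. There H3K4me3 in both lines, and overlap of both marks in both lines, remained in 3 windows (Axin2, Lef1 and Wnt3), and the mean number of H3K4me3 regions with H3K27me3 per line was 3, against 12.5 with the full lists. Dkk1, Sp5 and Cdx1 thus rest on H3K4me3 regions from the lower-scoring part of the lists. In CGR8 alone and in R1 alone the counts of windows were 6, and the regions with both marks numbered 12 in CGR8 and 13 in R1. With at least 50% of the H3K4me3 region covered, 6 windows remained in both lines, with 11 regions in CGR8 and 13 in R1.

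The place of the leading region moved by more than the SD of the lines in 12 of 12 cases when ranked by score per kb and in 11 of 12 when ranked by width. The H3K27me3 of Axin2 stood at 18.5% by score, at 51.5% by width and at 11.1% by score per kb, and by the last measure Dkk1 (20.4%) and Cdx1 (23.2%) stood lower than Axin2. By width Lef1 led H3K4me3 with 6.71%, against 11.7% for Axin2. No paired test was possible, since each line had 1 library per mark. The marks were set side by side within each line. Depth and the calling threshold limit what a missing region means.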

Other observations

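The surroundings of the windows differed between the genes. Dkk1 lay apart from other calls on its higher-coordinate side: the next H3K27me3 region began 586 kb beyond the window in CGR8 and 857 kb beyond it in R1, and the next H3K4me3 region 508 kb beyond it in both lines. At Wnt3 the next H3K27me3 region on that side lay 242 kb away in CGR8 and 239 kb away in R1. Sp5 had H3K27me3 close by on both sides, at 2.6 kb and 6.4 kb from the window in CGR8 and at 3.2 kb and 7 kb in R1. At Lef1 the lines differed: the next H3K27me3 region on the lower-coordinate side lay 6.6 kb from the window in CGR8 and 336 kb from it in R1, and on the other side 60.4 kb and 218 kb from it. At Cdx1 the lower-coordinate neighbour lay 7.2 kb away in CGR8 and 83.8 kb away in R1. The scores of these neighbours were not looked at, so a single weak call may set a distance. The H3K27me3 list of CGR8 was also the longer one, with 14575 regions against 12511 in R1.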
